A study of Drosophila melanogaster with 2 samples.

Results

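Lola, a DNA-binding repressor, was profiled by ChIP-seq in *Drosophila* S2 cells, and 366 of its 939 deposited peaks lay at promoters outside the repeated histone genes. These were the peaks that the authors' annotation placed within 1 kb of a transcription start site (TSS), after 92 peaks in the histone gene repeat on chromosome 2L (chr2L:21416953-21541681) were left out. S2 is an established cell line grown from embryos, and the cells were cultured in Schneider's medium with serum and carried no labelled knockdown or transgene. The series held 1 library precipitated with the Lola antibody and 1 library of input DNA, and the peak list belongs to the first. A single ChIP library leaves every value here without a replicate error. Its title and protocol give Lola as the precipitated protein, as does the study, but the antibody field of its labels names H3K4me2, a histone mark found at promoters. The study also tested Lola at several of these regions by ChIP-qPCR with and without knockdown of *lola*, a direct check that was not analysed here. The depth of both libraries is unknown, since the list gives no read numbers. Each peak has a start, an end, a summit (the base with the most signal), a fold enrichment and a −log10 p, all as the authors gave them.

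Lola (longitudinals lacking) is a transcription factor with a BTB domain, through which such proteins pair with each other, and zinc fingers that contact DNA. Its many isoforms share the BTB domain and differ in their zinc fingers. It is known from axon guidance and neurons, and the study examined it in the stem cells of the adult gut. A promoter is the sequence around a TSS where RNA polymerase assembles. In the compact fly genome many genes start head to head on opposite strands, a divergent pair, so that 1 peak can lie upstream of both, and many genes start at several alternative promoters.

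The sequences below are the 100 bp around the summits of peaks that the results turn on, read 5′ to 3′ on the plus strand of release 6 of the genome. They were cut to the stretch between the start sites for *Dref* and *RpL13*. For *CG10510* and *CG10508* the window was shortened to hold no more than 30 bases of transcribed leader sequence. Capitals mark AAAGCT, or AGCTTT where the word lies on the minus strand. This is the word that sets these windows most apart from other promoters, as described further on. *Ald1*, *Vha68-2*, *Idh*, *Mdh2* and *Shmt* stand for strong peaks at genes of metabolism and the vacuolar proton pump. The names joined by "and" stand for divergent genes, and *Eip75B* and *cnc* for genes bound at several start sites, where start sites of a gene within 100 bp form 1 group, numbered along the gene from the outermost. The gene *ec*, *Hsp68* and the *Dref* and *RpL13* pair are shown as strong peaks that lack the word.

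*Ald1*, chr3R:26261597-26261696: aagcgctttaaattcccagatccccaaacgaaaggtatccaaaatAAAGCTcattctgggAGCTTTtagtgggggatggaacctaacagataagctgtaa

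*Vha68-2*, chr2L:12974197-12974296: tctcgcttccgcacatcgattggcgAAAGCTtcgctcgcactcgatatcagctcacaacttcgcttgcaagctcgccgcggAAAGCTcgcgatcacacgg

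*Idh*, chr3L:8360983-8361082: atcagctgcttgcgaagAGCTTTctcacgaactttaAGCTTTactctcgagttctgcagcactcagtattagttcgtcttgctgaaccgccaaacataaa

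*Mdh2*, chr3R:18226310-18226409: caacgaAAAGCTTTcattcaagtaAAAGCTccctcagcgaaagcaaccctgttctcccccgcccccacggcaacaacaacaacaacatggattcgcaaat

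*Shmt*, chrX:5916357-5916456: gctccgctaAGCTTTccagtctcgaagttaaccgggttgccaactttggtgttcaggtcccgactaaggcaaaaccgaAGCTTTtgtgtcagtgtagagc

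*MtnA* and *CG8500*, chr3R:9784489-9784588: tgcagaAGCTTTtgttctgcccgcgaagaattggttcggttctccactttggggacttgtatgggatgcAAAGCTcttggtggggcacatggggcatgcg

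*CG10510* and *CG10508*, chr3L:21210177-21210244: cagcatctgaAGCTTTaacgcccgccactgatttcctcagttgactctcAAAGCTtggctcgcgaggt

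*Eip75B*, start site group 4, chr3L:18026128-18026227: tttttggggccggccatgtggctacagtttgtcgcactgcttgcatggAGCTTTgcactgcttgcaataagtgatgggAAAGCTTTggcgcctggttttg

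*Eip75B*, start site group 7, chr3L:17962356-17962455: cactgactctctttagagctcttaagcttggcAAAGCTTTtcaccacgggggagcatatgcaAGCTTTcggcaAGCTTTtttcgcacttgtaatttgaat

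*cnc*, start site group 2, chr3R:23221957-23222056: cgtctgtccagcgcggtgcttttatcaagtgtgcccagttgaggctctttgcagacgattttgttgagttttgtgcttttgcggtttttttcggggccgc

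*cnc*, start site group 3, chr3R:23214872-23214971: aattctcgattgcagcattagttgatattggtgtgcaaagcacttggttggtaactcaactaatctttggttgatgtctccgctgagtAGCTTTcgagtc

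*cnc*, start site group 6, chr3R:23191410-23191509: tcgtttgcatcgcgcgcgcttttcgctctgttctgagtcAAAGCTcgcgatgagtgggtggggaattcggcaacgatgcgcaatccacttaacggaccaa

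*ec*, chrX:3835946-3836045: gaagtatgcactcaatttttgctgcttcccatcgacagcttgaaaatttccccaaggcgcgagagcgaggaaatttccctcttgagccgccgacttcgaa

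*Hsp68*, chr3R:24057340-24057439: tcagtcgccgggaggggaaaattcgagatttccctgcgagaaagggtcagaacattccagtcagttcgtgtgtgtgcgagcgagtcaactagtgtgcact

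*Dref* and *RpL13*, chr2L:9967230-9967312: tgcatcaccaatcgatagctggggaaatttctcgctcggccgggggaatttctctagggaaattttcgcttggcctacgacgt

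In these windows *Mdh2* and *Eip75B* hold the longer AAAGCTTT, which reads the same on both strands. The *cnc* windows differ, with 1 word at start site groups 3 and 6 and none at group 2.

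The promoter peaks had a median fold enrichment of 2.74, with a range from 1.32 to 10.1. Their −log10 p ran from 3.88 to 169 with a median of 15.2, and their width from 200 to 2711 bp with a median of 299 bp. They were spread over the arms, with 106 on 3L, 93 on 3R, 65 on 2R, 60 on 2L, 40 on X and 2 on chromosome 4. Among all 939 peaks ranked by −log10 p, 60 of the first 100 were promoter peaks.

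The promoter peak with the highest −log10 p lay at *Teh1*, which encodes an auxiliary subunit of voltage-gated sodium channels, with a fold enrichment of 10.1 and a −log10 p of 169. *Ald1* (*Ald* in the file), which encodes the glycolytic enzyme aldolase, followed with a fold enrichment of 8.26 and a −log10 p of 150. The nuclear receptor gene *ftz-f1* had a fold enrichment of 8.88 at its strongest promoter peak. *Vha68-2*, which encodes the catalytic subunit of the vacuolar proton pump, had 8.79. Of the 366 peaks only 8 reached a fold enrichment of 7, and besides these 4 they lay at *nemy*, *tRNA:Gln-CTG-4-1*, *Shmt* and *Gycbeta100B*. The gene *nemy*, a cytochrome b561 family gene first described for memory, had 8.56, and *Shmt*, whose enzyme feeds serine into one-carbon metabolism, had 7.56. The tRNA gene was the nearest gene of a peak with a fold enrichment of 7.87, whose summit lay 1099 bp from its start.

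The rest of the 20 promoter peaks with the highest −log10 p lay between fold enrichments of 3.48 and 6.88. They included peaks at the microRNA gene *mir-34* (6.19), the antisense RNA *asRNA:CR46005* (6.88) and the metabolic genes *Tpi* (6.48), *Glyp* (4.69) and *Mocs1* (6.22), the last of which encodes an enzyme of molybdenum cofactor synthesis. The gene *ec*, which encodes a protein of the ubiquitin-specific protease family, had 6.19, and *Eip75B*, an early ecdysone-induced nuclear receptor gene, had 6.26. *NLaz*, a lipocalin gene, had 5.47 and *galectin*, a gene for a sugar-binding protein, had 4.79. *CG10433* (6.52), *CG8500* (6.10) and *CG17746* (3.48) are listed as uncharacterized proteins, as were the assigned genes of 116 of the 366 peaks. All 20 summits lay upstream of the nearest TSS, from 55 bp to 1099 bp away, and 15 of them within 250 bp. Not all of these lay in front of the gene. The summit was in coding sequence at *Shmt* and *Tpi* and in an intron at *nemy*, *ec*, *Eip75B* and *galectin*, upstream of a later start site.

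Promoter peaks were stronger than the 481 other peaks outside the histone repeat. A fold enrichment of at least 2 was reached by 294 of 366 promoter peaks, 80.3% (95% Wilson interval 75.9% to 84.1%), and by 155 of 481 others, 32.2% (28.2% to 36.5%). The odds ratio was 8.59 (two-sided Fisher's exact test, adjusted p = 1.6e-45 over 4 tests). Most of the other peaks lay in repeated sequence, and among single-copy peaks alone the shares were 84.6% and 62.6%, an odds ratio of 3.30 (Fisher's exact test, p = 5.1e-08, not adjusted). Among single-copy peaks the median fold enrichment was 2.79 in the promoter class, 2.88 in the 74 annotated to promoters 1 to 3 kb away, and 2.09 both in gene bodies and in distal sequence. The single-copy peaks just beyond 1 kb thus had a median close to that of the promoter peaks. Peaks of 1 library are not replicates, and these tests compare peaks within the list.

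**Figure D1:**
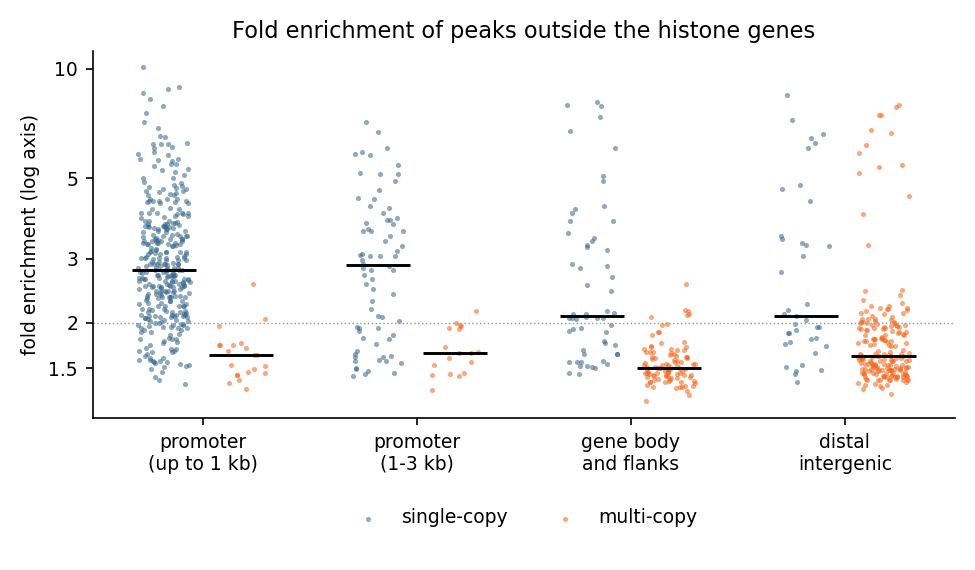
Fold enrichment (log axis) of every peak outside the histone repeat by annotation class, with single-copy peaks in blue, multi-copy peaks in orange, a black bar at each median and a dotted line at 2. The promoter peaks are nearly all single-copy, with a median of 2.79, whereas their 21 multi-copy peaks have a median of 1.63.

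A peak was called multi-copy when at least 50% of its 31-base words occur more than once in the genome, so that some reads may not be placed in 1 copy. The placing of reads was not examined. This held for 21 of 366 promoter peaks, 5.74% (3.78% to 8.61%), against 310 of 481 other peaks, 64.4% (60.1% to 68.6%; odds ratio 0.0336, Fisher's exact test, adjusted p = 5.1e-76). Many of the other multi-copy peaks lie in runs of neighbours, such as those of chr2R:3304694-3312825. Such peaks are not independent, which the test does not take into account. The multi-copy promoter peaks were weak, with fold enrichments from 1.32 to 2.56, and 17 of them were among the 122 peaks of lowest rank. They were named after their values were seen. Of the 21, 8 lay at *Stellate* genes (*Ste12DOR* and members of the *Ste* cluster on X), a repeated family silenced in the male germline, with fold enrichments from 1.37 to 1.73. Another 3 lay at pseudogenes of ribosomal RNA, 3 at *lncRNA:CR46123* and 2 at *Maf1*, including the widest promoter peak of 2711 bp. A further multi-copy peak lay at the histone pseudogene *His-Psi:CR31614* (chr2L:21542946-21543385), just past the histone repeat that was left out. Its fold enrichment of 1.74 was within the 1.37 to 1.92 of the peaks in that repeat.

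The summits of promoter peaks lay mostly just upstream of a TSS. The median position was 57.5 bp upstream of the nearest TSS of the reference annotation, and the middle 50% ran from 215.5 bp upstream to 20.75 bp downstream. Upstream summits numbered 252 of 366, 68.9% (63.9% to 73.4%). Upstream of the nearest TSS is not always outside the gene. In the assigned gene, 188 summits lay outside it, 70 in an intron, 62 in a 5′ leader and 27 in coding sequence. Another 11 lay in other exons, and 8 genes were not matched. Within 100 bp of a TSS lay 141 summits, and within 200 bp lay 212, of which 157 were upstream and 55 downstream. The peak itself covered a TSS in 200 of 366, 54.6% (49.5% to 59.7%).

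**Figure D2:**
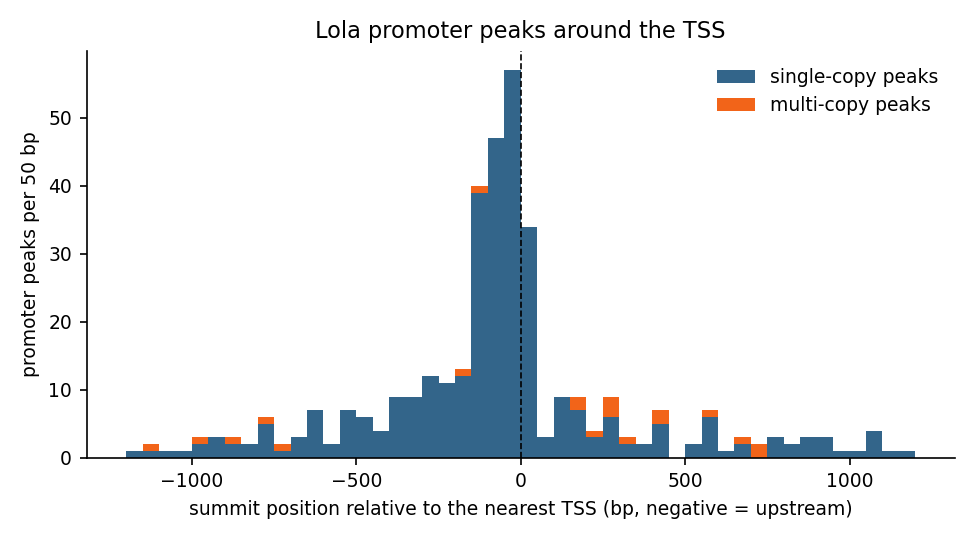
Number of promoter peaks per 50 bp of summit position relative to the nearest TSS (bp, negative upstream), single-copy in blue and multi-copy in orange; 1 peak, at *Maf1*, lies beyond the left edge. The counts are highest in the 150 bp upstream of the TSS and fall off over the first 50 bp downstream, with a longer shoulder on the upstream side.

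Position and rank moved together. Among the 122 peaks of highest −log10 p, 104 summits (85.2%) lay upstream, with a median position of 90.5 bp upstream, and among the next 122 peaks 94 (77.0%) did. In the lowest 122 only 54 (44.3%) were upstream, and the median summit lay 19 bp downstream of the TSS. The lowest group also held 17 of the 21 multi-copy peaks and had a median fold enrichment of 1.97 against 4.12 in the highest. Peaks with summits from 100 to 500 bp downstream had the lowest median fold enrichment of the 7 position bins, 1.73, and those in the 100 bp upstream had 3.06.

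The 1 kb of the class runs from the edge of the peak and not from its summit, with a distance of 0 where the peak covers the TSS. By summit, 353 of the 366 lay within 1000 bp of an annotated TSS, and 13 lay beyond it. Just inside the class were peaks at *mir-282* (1000 bp, fold enrichment 3.48), *Rev1* (993 bp, 1.53) and *Jhbp15* (992 bp, 1.56). Just outside it were peaks at *AdoR* (1018 bp, 3.58), *Xrp1* (1019 bp, 4.0) and *SkpA* (1044 bp, 3.88), so strong peaks lay on both sides of the limit.

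The 366 peaks were assigned to 338 genes. Protein-coding genes took 316 peaks, with a median fold enrichment of 2.83. The other 50 peaks, at genes for RNAs without a protein, pseudogenes or identifiers not matched in the Ensembl annotation (8 peaks), had a median of 2.12. Among these were 4 microRNA genes, named after their values were seen: *mir-34* (fold enrichment 6.19, summit 197 bp upstream of the annotated start), *mir-282* (3.48), *mir-279* (2.66) and *mir-278* (2.64). For microRNAs the annotated start can be that of the hairpin and not of the primary transcript, so positions there are relative to the annotation only. The assigned gene was the one nearest to the summit for 348 of 366 peaks.

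A promoter peak was assigned to 294 of 13968 protein-coding genes, 2.10%. Several of the genes with strong peaks encode enzymes of carbon metabolism. Over 4 lists (glycolysis, the TCA cycle with its feeder enzymes, glycogen metabolism and the pentose phosphate pathway), 12 of 50 genes had a promoter peak, 24.0% (14.3% to 37.4%), with 13 peaks in all. All the gene lists, these 4 and those below, were drawn up with earlier results of these data known. Their shares therefore carry no test and are not independent of the strongest peaks.

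In glycolysis, which splits glucose into pyruvate, 5 of 15 genes had a promoter peak. These were *Ald1* (fold enrichment 8.26), *Tpi* (6.48), which encodes triose phosphate isomerase and so acts on a product of aldolase, *Pfrx* (3.17), whose enzyme sets the level of an activator of phosphofructokinase, *Gapdh1* (3.02) and *Pfk* (2.83), the gene of phosphofructokinase itself. Their summits lay from 78 bp upstream to 355 bp downstream of the TSS. Around the TCA cycle, which oxidises acetyl groups in mitochondria, 4 of 22 genes had a promoter peak, and their fold enrichments were alike: *Gdh* (4.85), *Idh* (4.75), *Got2* (4.55) and *Mdh2* (4.49). They encode glutamate dehydrogenase, an isocitrate dehydrogenase, an aspartate transaminase and a malate dehydrogenase. Their summits lay 45, 127, 41 and 36 bp upstream of the TSS. *Got1* and *Men* of this list had peaks only outside the promoter class.

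*Glyp*, the gene of glycogen phosphorylase, had a pair of promoter peaks, 535 bp (fold enrichment 4.69) and 21 bp (2.08) upstream of its only annotated TSS. *AGBE*, the gene of the glycogen branching enzyme, had 1 peak (3.46, summit 11 bp downstream), so 2 of 6 glycogen genes were marked. In the pentose phosphate pathway *Pgd*, which encodes 6-phosphogluconate dehydrogenase, had a peak (4.87) and the other 6 of 7 genes had none. Of the 13 peaks of carbon metabolism, 11 had a fold enrichment of at least 3 and 11 had a summit within 150 bp of a TSS. Every one of the 13 held between 2 and 5 AAAGCT sites, with an AAAGCTTT, which holds the word on both strands, taken as 1 site. Among all 345 single-copy promoter peaks, 182 (52.8%) held at least 2. The word was also more frequent around summits of higher rank, as described further on, and rank was not separated from gene function here.

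**Figure D3:**
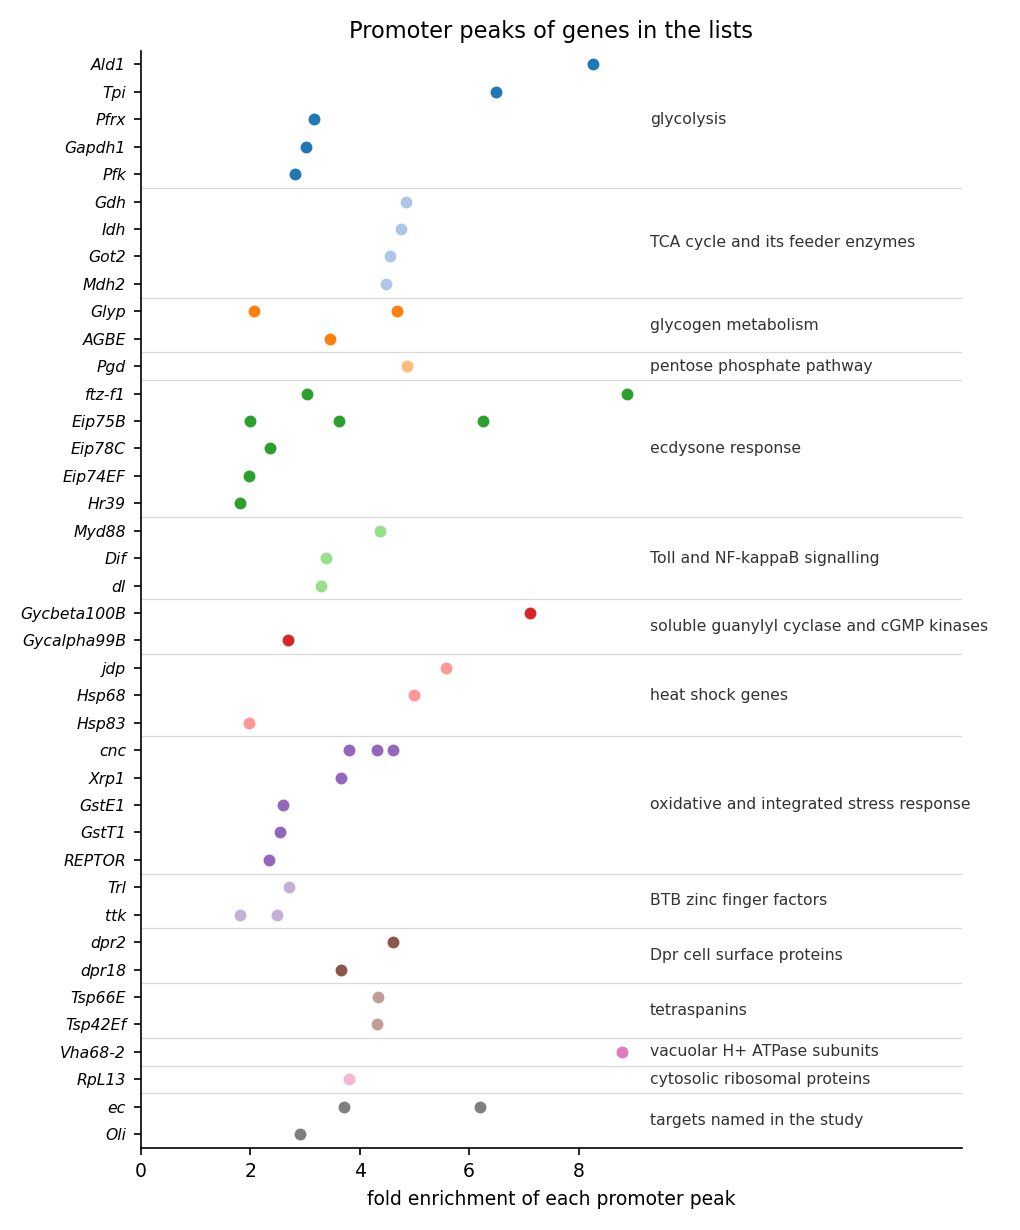
Fold enrichment of each promoter peak of the list genes that had one, each row a gene and each dot a peak, grouped by list. Dots of carbon metabolism lie between 2.08 and 8.26, and *ftz-f1*, *Eip75B*, *cnc*, *Glyp*, *ttk* and *ec* have more than 1 dot.

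Among stress genes, 5 of 17 in the oxidative and integrated stress list had a promoter peak, 29.4% beside the 2.10% of all protein-coding genes. The gene *cnc*, the fly homologue of the antioxidant regulator Nrf2, had 3 peaks with fold enrichments of 4.60, 4.32 and 3.81. *Xrp1* (3.66) and *REPTOR* (2.34) encode bZIP transcription factors of the stress and nutrient responses, and *GstE1* (2.60) and *GstT1* (2.54) encode glutathione transferases. Heat shock genes had a peak at 3 of 17 (17.6%). These were *jdp* (5.58), a DnaJ-domain gene, *Hsp68* (5.0), of the Hsp70 family, and *Hsp83* (1.98), the fly Hsp90 gene.

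In Toll signalling, the pathway of innate immunity and of dorsal-ventral patterning, 3 of 14 genes were marked (21.4%, beside the 2.10% of all protein-coding genes). *Myd88* (fold enrichment 4.37) encodes the adaptor at the receptor, and *dl* (3.29) and *Dif* (3.39) encode NF-κB factors at the end of the pathway. Their summits lay 64, 22 and 120 bp upstream of the TSS. Of the genes for soluble guanylyl cyclases and cGMP-dependent kinases, 2 of 8 had a promoter peak (25%). These were *Gycbeta100B* (7.11) and *Gycalpha99B* (2.70), which encode the beta and the alpha subunit of the nitric oxide receptor cyclase.

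Genes of the ecdysone response had a promoter peak at 5 of 16, 31.25% beside the 2.10% of all protein-coding genes. Besides *ftz-f1* (8.88 and 3.03) and *Eip75B* (6.26, 3.62 and 1.99), these were *Eip78C* (2.36), *Eip74EF* (1.97) and *Hr39* (1.81). These values cover promoter peaks only. Outside that class, a peak of 8.11 (chr3L:17596814-17597212) lay upstream of the same *Eip74EF* start site. Another, of 6.03, lay 9565 bp downstream of the first *ftz-f1* start site. The steroid ecdysone drives moulting, and the 5 genes encode transcription factors of its cascade.

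The other families had at most 2 marked members each, beside the 2.10% of all protein-coding genes. BTB zinc finger factors, the class to which Lola belongs, had a promoter peak at 2 of 13 (15.4%). These were *Trl* (2.72), the GAGA factor gene, and *ttk* (2.49 and 1.81). The Dpr surface proteins, which pair neurons with their partners, had 2 of 21 (9.52%), *dpr2* (4.60) and *dpr18* (3.66). The tetraspanins had 2 of 34 (5.88%), *Tsp66E* (4.34) and *Tsp42Ef* (4.32). *Vha68-2* was the only one of 33 vacuolar proton pump genes with a promoter peak (3.03%). *RpL13* (3.81) was the only one of 88 ribosomal protein genes. That share, 1.14%, rests on 1 gene, as does the 3.03% before it. Neither is therefore read as different from the 2.10% of all protein-coding genes. In the Hippo pathway list 0 of 17 genes had a promoter peak, and at a share of 2.10% a list this short may hold none.

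Of the 5 target genes that the study names, *ec* had promoter peaks of 6.19 and 3.72 and *Oli*, a bHLH factor gene, a peak of 2.90 with its summit 114 bp upstream. The peak nearest *Dref*, a gene for a factor that activates genes of growth and DNA replication, was assigned to *RpL13*. Its summit lay 6 bp upstream of the *RpL13* start and 78 bp from the *Dref* start, and it therefore counts for *Dref* only when every gene with a TSS within 1000 bp is taken. The other targets, *SkpA* (3.88, 1044 bp from the TSS) and *pdm3*, had peaks only outside the promoter class.

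At 121 of 366 promoter peaks, 33.1% (28.4% to 38.0%), at least 2 genes had a TSS within 1000 bp of the summit. A divergent pair is here 2 protein-coding genes on opposite strands whose outermost start sites lie within 1000 bp of each other. Such a pair, with both start sites also within 1000 bp of the summit, was found at 54 peaks, 14.8% (11.5% to 18.8%). By gene, 69 of the 294 protein-coding genes with a promoter peak were members of such a pair, 23.5% (19.0% to 28.6%), against 32.1% of all protein-coding genes. Genes of divergent pairs were thus not more frequent among the marked genes than in the annotation. No test was made of this difference.

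At the 54 peaks the start sites of the pair lay from 45 to 989 bp apart, with a median of 356.5 bp. The summit fell between them at 35 peaks, 64.8% (51.5% to 76.2%). It lay nearer to 1 gene than to the other, with a median of 77.5 bp to the nearer and 426 bp to the farther start site. The median fold enrichment was 2.95 at divergent pairs and 2.72 at the other promoter peaks. The AAAGCT word lay in the 100 bp around the summit at 32 of 54 single-copy peaks of divergent pairs, 59.3% (46.0% to 71.3%), and at 154 of 291 others, 52.9% (47.2% to 58.6%). This difference did not pass the test (odds ratio 1.29, Fisher's exact test, adjusted p = 0.458).

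**Figure D4:**
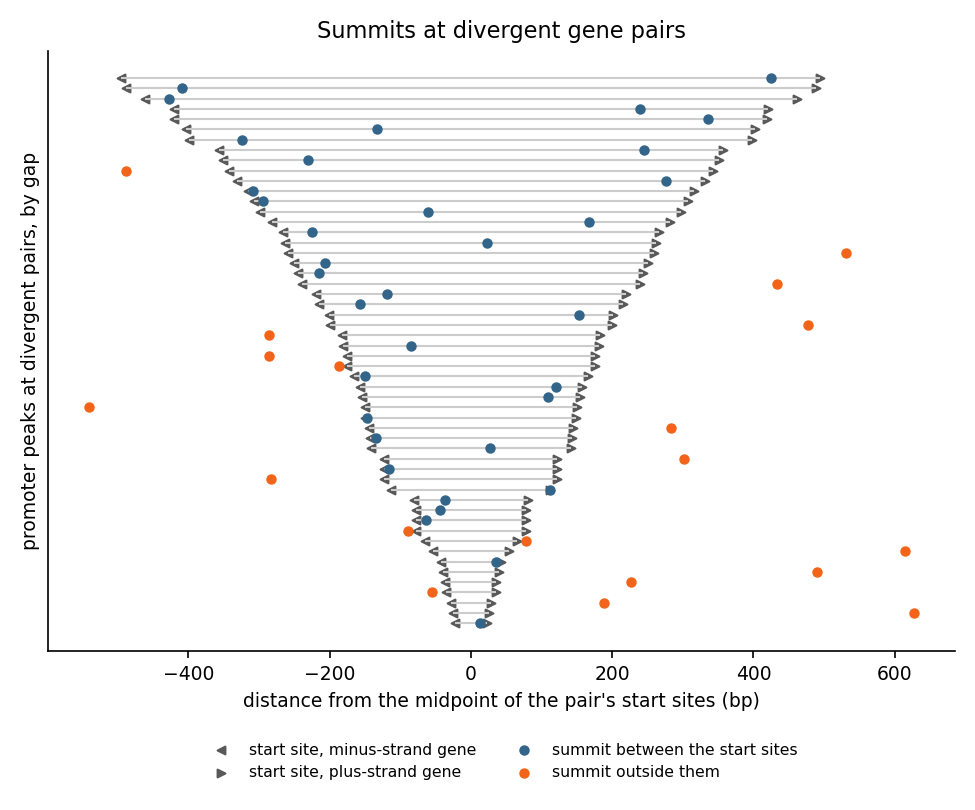
Each row is 1 of the 54 promoter peaks at divergent pairs, sorted by the gap between the start sites (triangles), with the x axis in bp from the midpoint. Blue summits (35) lie between the start sites, mostly close to one of them, and orange summits (19) lie outside.

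Of the 100 promoter peaks of highest −log10 p, 21 lay at divergent pairs. At *MtnA* and *CG8500* (start sites 283 bp apart, fold enrichment 6.10) the summit lay 169 bp from the start of *MtnA*, a metallothionein gene, and 114 bp from that of *CG8500*. At *CG6310* and *Mocs1* (662 bp apart, 6.22) the summit was 55 bp from *Mocs1* and 607 bp from *CG6310*. *Hsp68* shares its upstream region with *SMC1*, the gene of a cohesin subunit (977 bp apart, 5.0), and the summit was 80 bp from *Hsp68* and 897 bp from *SMC1*. In these pairs the summit lay nearer to the gene that the authors assigned.

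*Got2* faces *Npc2a*, a gene for a sterol-binding protein (532 bp apart), with the summit 41 bp from *Got2*, and *Mdh2* faces *CG7168* (314 bp apart), with the summit 36 bp from *Mdh2*. *Dif* faces *CG5043* (701 bp apart), with the summit 120 bp from *Dif*. The closest of the 21 pairs were *IFT43* and *PICK1* (45 bp apart, fold enrichment 3.63) and *Dref* and *RpL13* (84 bp apart, 3.81). There a summit stands within 100 bp of both start sites. At *Shmt* and *CG3726* (300 bp apart) the summit lay outside the gap, 390 bp into the *Shmt* side, which put it 90 bp upstream of a second start site of *Shmt*.

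Alternative promoters were frequent at the marked genes. When start sites of a gene within 100 bp were joined into 1 group, 156 of 294 protein-coding genes with a promoter peak had at least 2 groups, 53.1% (47.4% to 58.7%), against 23.6% of all protein-coding genes. The marked genes were also longer, with a median length of 5422 bp against 2164.5 bp, and the part of length in this share was not tested. Counted by peak, 183 of 366 lay at genes with at least 2 groups (44.9% to 55.1% by the Wilson interval), and 175 at genes with 1.

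At the 183 peaks the group nearest the summit was the first, outermost one in 86, 47.0% (39.9% to 54.2%), the last in 50 and one in between in 47. At the 80 peaks of genes with exactly 2 groups, 50 lay at the first and 30 at the second. The median fold enrichment was 2.97 at first groups, 2.61 at later ones and 2.74 at genes with 1 group, with no test made.

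There were 22 genes with at least 2 promoter peaks, and 9 of them had peaks at different start site groups. The gene *cnc* had peaks at groups 2, 3 and 6 of its 10, with summits 46, 365 and 177 bp upstream, spread over 30547 bp, and all within 3.81 to 4.60 in fold enrichment. *Eip75B* had its 3 promoter peaks at groups 4, 6 and 7 of 7 over 63772 bp, with fold enrichments of 6.26, 1.99 and 3.62. The first and the last of these lay 146 and 592 bp upstream of their start sites, and the weak one 152 bp downstream. A stronger peak (7.88), outside the promoter class, lay in the body of *Eip75B*, 6052 bp downstream of the group 4 start site. In both genes promoter peaks lay at some start site groups and not at the others.

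*Exn* had peaks at the first (2.68) and the third (5.77) of 3 groups. *Ptp99A*, a receptor tyrosine phosphatase gene, had them at groups 2 (2.41) and 4 (3.39) of 4. The zinc finger genes *jim* (3.70 at group 1, 2.79 and 2.22 at group 3), *jing* (4.15 and 3.76 at groups 2 and 3) and *ttk* (1.81 and 2.49 at groups 1 and 3) showed the same arrangement, as did *Sqor* (3.36 and 2.30), which encodes a sulfide oxidising enzyme, and *lncRNA:CR43626* (1.77 and 1.57). The remaining genes had their peaks near a single group. At *ec* the summits lay 84 bp (6.19) and 526 bp (3.72) upstream of its second group, and at *ftz-f1* 225 bp upstream (8.88) and 1007 bp downstream (3.03) of its first. Likewise *CG18135*, *CG5973*, *COX7AL2*, *Gdap2*, *Spn*, *rdx* and *tow* had peaks 348 to 1196 bp apart, with fold enrichments between 1.91 and 3.99. One identifier, with 4 weak peaks of at most 1.76, was not matched in the annotation.

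The AAAGCT word, read on either strand, was present in the 100 bp around 186 of 345 single-copy promoter summits, 53.9% (48.6% to 59.1%). For comparison, the same 100 bp window was placed 59 bp upstream of 13400 protein-coding genes with no Lola peak within 2000 bp, and 9.13% of these held it. In windows 350 bp to either side of the same summits the share was 8.55%. Of 2080 six-base words this was the one with the largest difference in share from other promoters, and the next, AAGCTC, overlaps it, as do the 3 that follow. The word had been singled out in earlier work on these data.

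The word also came more than once in a peak. An AAAGCTTT holds the word on both strands and was counted here as 1 site. Over the whole length of the 345 single-copy promoter peaks, 253 had a site (73.3%), 182 had at least 2 (52.8%), and 2 peaks had 6. The 558 sites were centred on the summit, with 316 (56.6%) within 50 bp of it, and a median distance of 42.5 bp. Palindromes made up 108 of them. Among the 450 sites with the word on 1 strand only, 228 had it on the strand of the nearest gene (50.7%, 46.1% to 55.3%). The 8-base palindrome AAAGCTTT occurred in 19.4% of the summit windows and in 0.851% of other promoters.

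**Figure D5:**
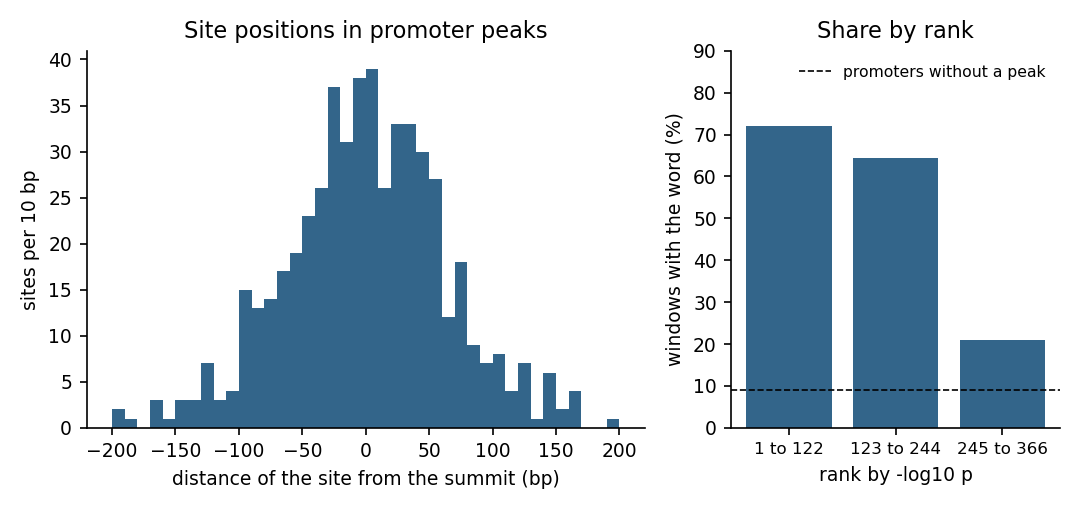
Left, AAAGCT sites on either strand per 10 bp of distance from the summit, out to 200 bp, in the 345 single-copy promoter peaks. Right, share of single-copy summit windows of 100 bp that hold the word, by rank of the peak, with the dashed line at the 9.13% of promoters without a peak; it is 72.1%, 64.4% and 21.0%.

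The share with the word fell with rank, from 72.1% in the 122 strongest peaks by −log10 p and 64.4% in the next 122 to 21.0% in the single-copy peaks of the last 122. By position it was highest for summits 100 to 200 bp upstream of the TSS, 70.6%, and lowest for those 100 to 500 bp downstream, 17.6%. Peaks holding the word anywhere had a median fold enrichment of 3.05, and the 92 without it 2.07. Among the other single-copy peaks outside the histone repeat the word was in 67 of 171 summit windows, 39.2% (32.2% to 46.7%; odds ratio 1.82, Fisher's exact test, adjusted p = 0.00265). By class, the share was 48.6% in the 74 peaks at promoters 1 to 3 kb away, 36.2% in gene bodies and flanks and 25.6% in distal sequence, so the nearest class came close to the 53.9% of the promoter peaks, with no test made. Among peaks with a fold enrichment of at least 2 the shares were 62.7% and 59.8%, and the difference no longer passed the test (odds ratio 1.13, Fisher's exact test, p = 0.642). The difference between promoter and other peaks thus moved with peak strength.

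Known promoter elements were searched in the same windows on both strands, by exact letters. TATAAA, the core of the TATA box, was in 4.93% of promoter summit windows and in 21.0% of other promoters. TATCGATA, the DNA replication-related element bound by Dref, was in 1.16% and 5.61%, and GAGAG, the core of the site of the GAGA factor, in 26.7% and 12.8%. In the windows 350 bp to either side of the same summits, the shares were 15.1% for TATAAA, 0.58% for TATCGATA and 14.6% for GAGAG. TATCGATA was thus below other promoters at the summits but not below the flanks. The other promoters were read at 1 fixed distance from the TSS while the summits vary in position, so elements tied to a position are compared at unlike places. The G and C content had a median of 49% in the summit windows and 40% at other promoters, and the part of base composition in these shares was not tested.

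Of the 100 strongest promoter peaks, all single-copy, 12 held no AAAGCT at all. They were led by *asRNA:CR46005* (fold enrichment 6.88), *ec* (6.19), *Hsp68* (5.0) and *dpr2* (4.60), and the peak between *Dref* and *RpL13* (3.81) was among them. The gene *jing*, with 2 such peaks (4.15 and 3.76), and the second peak of *ec* (3.72) lacked it too, so both promoter peaks of these genes were without the word.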

How the data were processed

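Per the labels and the methods, S2 chromatin was cross-linked, sheared to about 200 bp and precipitated, and libraries followed Illumina protocols. The submitters' processing notes name Bowtie2, SAMtools, MACS2, ChIPseeker and the build BDGP6, with no versions given in the sources used here. The authors deposited peaks of the ChIP library, each with a fold enrichment (a ratio whose reference is not stated), a −log10 p, a second −log10 column of the same heading (not used), and in bp (other units) its summit offset, width and distance to the TSS. Summits are 1-based peak starts plus the offset. Depth is unknown, so the 95% Wilson intervals reflect how many peaks were counted and nothing else.

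Positions were taken as release 6, since 924 of 927 matched transcripts had the same start and end in Ensembl release 115. Names follow that annotation. TSSs of all its genes were used for distances. Multi-copy means at least 50% of 31-base words found more than once. The 4 Fisher's exact tests were two-sided, with Benjamini-Hochberg adjustment. Alternatives changed the fold, p, distance, copy and window limits. Word counts and tests were checked on simulated data. Named genes were the top 20 promoter peaks by −log10 p, list genes with a promoter peak, genes with at least 2, divergent pairs among the top 100, and the study's targets. The members, lists and word were chosen with earlier results of these data known. Python 3.11.15, numpy 2.4.6, pandas 2.3.3, scipy 1.17.1 and matplotlib 3.10.9 were used. The input library, qPCR, reporter and midgut experiments were not analysed here.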

Additional observations from a re-analysis of the deposited data

How the results depend on the processing

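Of 25 alternatives to the main results, 21 were classed as unchanged, by direction and side of the threshold, or by limits on a count or share. All 16 of the alternatives for single gene lists were classed so too. The limits for counts are not given here, and counts classed as unchanged still moved. The 366 promoter peaks became 294 at a fold enrichment of at least 2 and 265 at a −log10 p of at least 10, with 344 to 354 at the other settings. The 294 protein-coding genes with a promoter peak became 250 at that fold enrichment. They became 374 when any gene with a TSS within 1000 bp of the summit was counted. The share of upstream summits rose from 68.9% to 76.5% among peaks with a fold enrichment of at least 2. With both start sites within 500 bp of each other and of the summit, 7.92% of promoter peaks lay at divergent pairs in place of 14.8%. Both limits were shortened together, so fewer pairs and fewer summits qualify. With start sites joined within 300 bp, the share at genes with alternative promoters was 43.4%, down from 183 of 366 peaks, as fewer groups remain. The difference in AAAGCT between promoter and other peaks was lost at a fold enrichment of at least 2, with an odds ratio of 1.13 against 1.82, and the cause was not tested; over its alternatives the p of Fisher's exact test ran from 6.4e-05 to 0.642. With 1 ChIP library and unknown depth, no replicate or counting error of a single peak can be given. The antibody field of the labels, which names H3K4me2, stands against the title, the protocol and the study, and the ChIP-qPCR of the study that bears on it was not analysed here.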

Other observations

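The 159 single-copy promoter windows of 100 bp without AAAGCT were searched for six-base words after the sequences of *ec*, *Hsp68* and the *Dref* and *RpL13* pair had been seen. Against the 12177 other promoters that lack AAAGCT, the largest differences in share were those of GGGAAA, in 17.0% against 6.5%, and AGCGAG, in 14.5% against 4.15%. The difference for the first, 10.5 percentage points, is small beside the 44.8 points of AAAGCT over all single-copy windows. No test was made, as the words were picked by these shares.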
